A study of Mus musculus with 20 samples.

Results

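The genes described here are 9 receptors and enzymes of purinergic and adenosine signalling in BV-2 cells, a mouse microglial cell line. They are the ATP-gated channels *P2rx4* and *P2rx7*, the nucleotide receptors *P2ry2*, *P2ry6* and *P2ry14*, the adenosine receptors *Adora2a* and *Adora2b*, and the ecto-enzymes *Entpd1* and *Nt5e*. They were chosen by symbol, as the rows whose Ensembl mouse gene ID carries one of these names in GENCODE M21, and all 9 were found among the 55487 genes counted. The study asked how long-term culture, used there as a model of microglial ageing, changes gene expression with and without an inflammatory stimulus. It sequenced poly(A) RNA from 20 libraries in 4 groups of 5, namely young untreated, young LPS-treated, aged untreated and aged LPS-treated cells.

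All 4 groups were wild-type BV-2 cells. LPS, the bacterial lipopolysaccharide sensed by Toll-like receptor 4, was given at 100 ng/ml for 6 h. Young cells were at low passage, and aged cells came from long-term cultivation of the same line. The aged state is therefore that of a proliferating, immortalised line in culture and not of cells from an old animal. The labels give each library a batch number from 1 to 5, and each batch holds 1 library of each group. The libraries are described in the labels only by group and number, so p-values measure the spread between these samples. The study froze its aged cells after cultivation and used aliquots of them in later experiments. That spread may therefore not cover the one between separately aged cultures.

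Cells release ATP and UTP when they are stressed or damaged, and microglia sense these nucleotides through P2X channels and P2Y receptors. Cell-surface enzymes then remove the phosphates in steps: CD39, the product of *Entpd1*, takes ATP and ADP to AMP, and CD73, the product of *Nt5e*, takes AMP to adenosine. Adenosine acts on its own receptors, of which those encoded by *Adora2a* and *Adora2b* raise cAMP and are known for damping inflammatory output of myeloid cells.

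The libraries held 11371508 to 16829292 assigned counts each (median 14370473). Of 10 microglial markers, 10 were above 3 counts in every library of both untreated groups and 8 in every library of both LPS groups, where *Cx3cr1* and *P2ry12* were low. Their summed level was 2518 to 3593 CPM (counts rescaled to a common library total) in young untreated, 2134 to 3174 in aged untreated, 2788 to 3899 in young LPS-treated and 2453 to 3549 in aged LPS-treated libraries. Of 5 markers each, none of the astrocyte, neuron or fibroblast list was above 3 counts in every library of any group. The T cell list had *Cd3e* and *Cd8a* at 0 throughout, and its sum of 5.05 to 14.5 CPM was mostly *Lck*. The endothelial list had *Cldn5* and *Tek* at 0 throughout, and its sum of 66.1 to 112 CPM was nearly all *Kdr*. The oligodendrocyte list had *Mog* and *Mobp* at 0 throughout and a highest sum of 1.78 CPM. Mitochondrial genes took 0.517% to 1.30% of the counts.

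The values below are CPM scaled by the trimmed mean of M-values (TMM), listed in the order of batch 1 to 5. Of the 9 genes, 7 passed the filter on low counts. *P2ry14*, the UDP-sugar receptor, and *Nt5e* had 0 counts in all 20 libraries. A count of 0 allows up to 3 counts, or 0.178 to 0.264 CPM by library before TMM scaling, which covers counting error only. The 9 genes lie at 7 places in the GRCm38 genome, since the channels *P2rx7* (chr5:122643911-122691432, plus strand) and *P2rx4* (chr5:122707544-122729738, plus strand) are neighbours, as are *P2ry6* (chr7:100937630-100974649, minus strand) and *P2ry2* (chr7:100996568-101012866, minus strand).

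Promoter sequences are shown for 5 genes that changed with LPS in young cells. These genes are the ones with an entry in the RefSeq promoter table (build GRCm38.p6). Among them the neighbours *P2rx4* and *P2rx7* moved in opposite directions in young cells. Each is the stretch of 250 bases just before the most upstream listed start, 5′ to 3′ on the strand of the gene, and *P2rx7* has 234 because the rest lies in an annotated exon. Of the 9 genes, 7 have an entry. *Adora2a* and *P2ry6* are named only. Capitals mark 3 kinds of motif found on either strand. The first is the GC box, spelled GGGCGG. Another is the box known by its letters as CCAAT. The AP-1 motif was searched as TGANTCA, with N for any base, and in no window do the marked motifs overlap.
P2rx4: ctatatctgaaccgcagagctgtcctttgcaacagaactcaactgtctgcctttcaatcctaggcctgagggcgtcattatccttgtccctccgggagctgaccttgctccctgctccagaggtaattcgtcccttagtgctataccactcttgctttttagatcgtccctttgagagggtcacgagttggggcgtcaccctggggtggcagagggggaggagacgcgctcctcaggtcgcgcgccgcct
P2rx7: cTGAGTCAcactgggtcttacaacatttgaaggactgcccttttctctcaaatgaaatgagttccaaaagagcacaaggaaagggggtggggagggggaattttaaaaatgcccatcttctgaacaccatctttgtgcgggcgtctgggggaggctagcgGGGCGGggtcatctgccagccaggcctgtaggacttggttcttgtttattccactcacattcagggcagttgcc
P2ry2: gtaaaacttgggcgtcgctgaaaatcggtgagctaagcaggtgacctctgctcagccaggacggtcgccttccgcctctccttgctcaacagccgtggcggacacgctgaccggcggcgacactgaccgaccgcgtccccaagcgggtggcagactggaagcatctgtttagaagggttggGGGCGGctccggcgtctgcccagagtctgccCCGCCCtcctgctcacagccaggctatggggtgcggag
Adora2b: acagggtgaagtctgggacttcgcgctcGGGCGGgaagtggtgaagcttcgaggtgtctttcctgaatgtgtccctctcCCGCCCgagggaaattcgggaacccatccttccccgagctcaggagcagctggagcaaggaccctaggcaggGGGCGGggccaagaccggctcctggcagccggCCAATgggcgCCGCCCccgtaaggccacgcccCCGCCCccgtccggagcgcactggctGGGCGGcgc
Entpd1: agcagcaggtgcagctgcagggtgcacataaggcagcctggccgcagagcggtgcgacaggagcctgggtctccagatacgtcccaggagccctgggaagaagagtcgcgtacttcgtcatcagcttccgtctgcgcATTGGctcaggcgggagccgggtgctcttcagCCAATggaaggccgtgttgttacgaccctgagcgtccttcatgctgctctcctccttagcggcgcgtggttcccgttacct

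These windows are chr5:122707294-122707543 (plus) for *P2rx4*, chr5:122643677-122643910 (plus) for *P2rx7*, chr7:101012054-101012303 (minus) for *P2ry2*, chr11:62248734-62248983 (plus) for *Adora2b* and chr19:40612116-40612365 (plus) for *Entpd1*. The *P2ry2* window lies inside the GENCODE span of the gene, which reaches 101012866, because the listed RefSeq start is 101012053. *Adora2b* holds 6 GC boxes, and 0.886% of 32851 listed promoters hold at least 6. It also has 1 CCAAT box. *P2ry2* holds 2 GC boxes and *P2rx7* 1, and 32.7% of all promoters hold any. *Entpd1* holds 2 CCAAT boxes, on opposite strands, and 33.8% of promoters hold any. *P2rx7* holds 1 AP-1 motif, 249 bases before the start, against 6.75% of promoters. None of the 5 windows holds the NF-kappaB consensus (3.9% of promoters), the cAMP response element TGACGTCA (1.55%) or the TATA box TATAAA (12.4%). *P2rx4* has none of the 6 motifs searched. The counts do not show which start the cells used, and no binding was measured.

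LPS changed 6 of the 7 testable genes in young cells. *P2rx4*, *P2ry2*, *Adora2a* and *Adora2b* rose, *P2rx7* and *Entpd1* fell, and *P2ry6* did not pass the test. In aged cells *P2rx4*, *P2ry2*, *Adora2a* and *Adora2b* rose too, *Entpd1* fell, and *P2rx7* and *P2ry6* did not pass. Among all 12799 genes tested, 64.6% were called in young cells (31.2% higher, 33.5% lower) and 54.4% in aged cells (27.5% higher, 26.9% lower), so LPS called a large share of all genes as well. The LPS-treated and untreated libraries did not overlap for 5 of the 7 at each age, against 49.1% of all genes in young and 40.1% in aged cells. *Adora2a* is in these counts but passed the filter on low counts only through its LPS-treated libraries, so its rise is not independent of that filter. Calls are at an adjusted p below 0.05 in the edgeR quasi-likelihood test, adjusted over all genes tested. In a bulk sample, fewer cells with a transcript and less of it per cell cannot be told apart.

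Aged cells were compared with young ones in each state. In untreated cells 2 of 7 were called, *P2ry6* and *Entpd1*, both lower in aged cells, against 11.5% of all genes called and 7.81% called lower. Under LPS 6 of 7 were called, all lower in aged cells, against 29% of all genes called and 15% called lower. The LPS response itself differed with age for 2 of 7, *P2ry2* and *Adora2b*, both with a smaller rise in aged cells, against 6.39% of all genes called with 4.12% called positive and 2.27% negative. The aged-young comparison under LPS and the LPS response in aged cells share the aged LPS-treated libraries, and each of these contrasts shares a group with others.

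**Figure D1:**
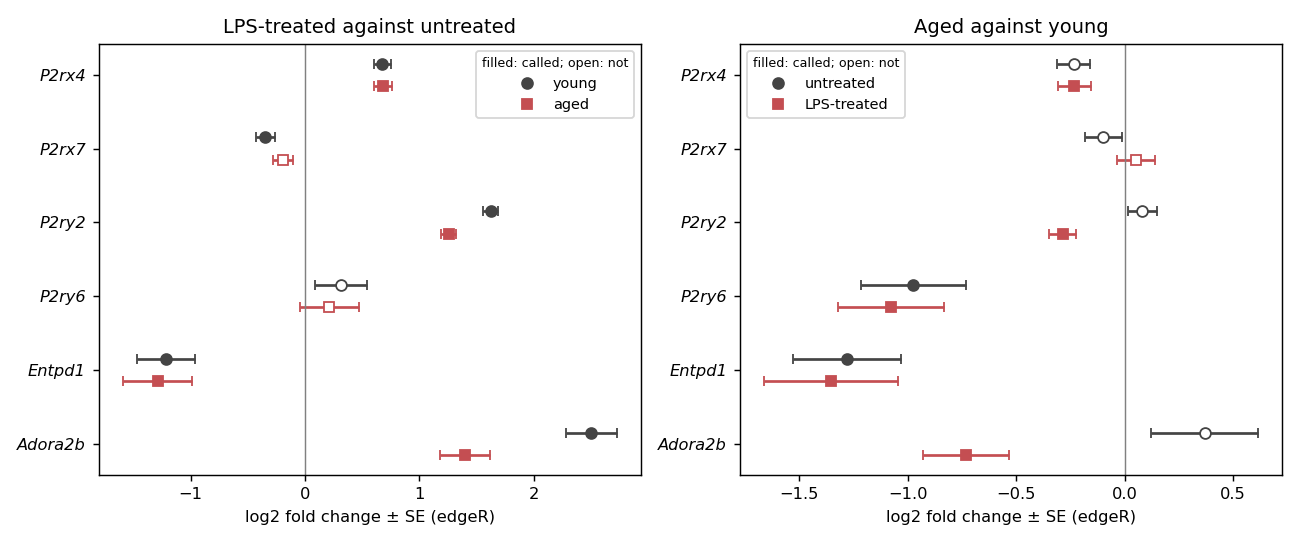
Log2 fold changes with their standard errors (edgeR, 5 libraries per group) of 6 genes on the x axis, for LPS-treated against untreated cells (left: young cells as circles, aged cells as squares) and for aged against young cells (right: untreated as circles, LPS-treated as squares). Filled symbols passed an adjusted p of 0.05. *Adora2b* rose by 2.50 in young and 1.40 in aged cells, and *P2ry6* and *Entpd1* lay left of 0 in both comparisons of aged with young cells. *Adora2a* is left out because its untreated libraries held at most 2 counts.

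*P2rx4* encodes an ATP-gated cation channel that sits largely in lysosomes and is known to rise in activated microglia. Its level in young cells was 72.9, 73.1, 69.5, 65.9 and 63.5 CPM untreated and 122, 116, 110.4, 102 and 101 CPM after LPS. In aged cells it was 63.8, 51.9, 67.3, 51.7 and 58.2 CPM untreated and 102, 86.9, 104, 86.5 and 90.6 CPM after LPS. Every LPS-treated library stood above every untreated library of the same age. The rise was 1.60-fold at both ages (young, log2 0.68, SE 0.08, edgeR adjusted p = 6.94e-08; aged, log2 0.68, SE 0.08, adjusted p = 1.16e-07). The difference between the 2 responses was 0.00 on the log2 scale (SE 0.11, edgeR adjusted p = 0.993).

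The aged-young difference of *P2rx4* was small in both states. Under LPS the log2 difference was -0.23 (SE 0.08, edgeR adjusted p = 0.026). The groups overlapped, and the aged library was the lower one in 5 of 5 batches, by 0.091 to 0.416. That call was lost without replicate 1 (adjusted p = 0.0543), 2 (adjusted p = 0.157) or 4 (adjusted p = 0.0517), and with library sizes alone as the scaling (adjusted p = 0.112), and the range over 11 alternatives was 0.00327 to 0.157. Untreated, the difference was -0.24 (SE 0.08, edgeR adjusted p = 0.052). It passed with the batch as a replicate block (log2 -0.24, adjusted p = 0.00741) and with DESeq2 (adjusted p = 0.0462), and the range over 11 alternatives was 0.00741 to 0.306.

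*P2rx7* encodes the low-affinity ATP channel known for potassium efflux and activation of the NLRP3 inflammasome. Young cells held 82.3, 83.3, 86.2, 75.9 and 75.3 CPM untreated and 75.9, 66.9, 63.2, 57.7 and 53.9 CPM after LPS. Aged cells held 67.8, 76.2, 79.8, 79.2 and 73.2 CPM untreated and 57.7, 70.0, 74.4, 71.0 and 55.6 CPM after LPS. Untreated and LPS-treated libraries overlapped at both ages, yet the LPS-treated library was the lower one in all 5 batches at each age.

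The fall of *P2rx7* in young cells was 1.27-fold (log2 -0.35, SE 0.09, edgeR adjusted p = 0.00134). In aged cells the log2 change was -0.20 (SE 0.09, edgeR adjusted p = 0.0603), and with the replicate block it was -0.20 with adjusted p = 0.0305. It was also called without the filter on low counts (adjusted p = 0.0475) and with library sizes alone (adjusted p = 8.60e-04), and the highest of 11 alternatives was 0.163. The responses were not shown to differ between the ages (log2 0.15, SE 0.12, edgeR adjusted p = 0.567). Aged against young cells gave -0.10 untreated (adjusted p = 0.516) and 0.05 under LPS (adjusted p = 0.709). In exon sequence *P2rx7* shares 119 bases (1.99%) on its strand with the small RNA gene *Mir8115*, which had at most 14 counts in a library against 1444 for *P2rx7*.

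The 2 adjacent channel genes thus moved apart with LPS, and the ratio of their CPM was compared within each library. The log2 ratio of *P2rx4* to *P2rx7* was -0.23 ± 0.06 (SD, n = 5) in young untreated and 0.80 ± 0.08 in young LPS-treated cells, a shift of 1.03 (exact permutation test, two-sided, p = 0.0079, adjusted over 5 ratio tests p = 0.0198). In aged cells it was -0.37 ± 0.22 untreated and 0.52 ± 0.24 after LPS, a shift of 0.89 (exact permutation test, p = 0.0079, adjusted p = 0.0198). No library overlapped between untreated and treated cells, and 0.00794 is the smallest p that 5 against 5 can give.

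The ratio was not shown to differ with age, either untreated (-0.14, exact permutation test, adjusted p = 0.238) or under LPS (-0.28, adjusted p = 0.106). Sign flips within the 5 batches cannot pass the threshold, since their smallest p is 0.0625 and the replicate block gives 0.156 after adjustment for both shifts.

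**Figure D2:**
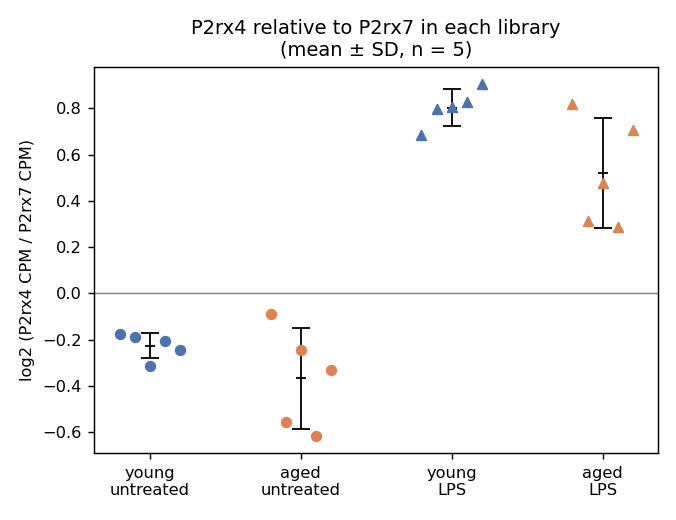
The log2 ratio of *P2rx4* CPM to *P2rx7* CPM on the y axis in each of the 20 libraries, with the mean and SD of each group (n = 5). All untreated libraries lie below 0 and all LPS-treated libraries above it, with group means from -0.37 to 0.80.

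*P2ry2* encodes the Gq-coupled receptor for ATP and UTP. Young cells held 18.4, 14.2, 16.9, 17.8 and 17.2 CPM untreated and 46.2, 52.4, 54.8, 54.4 and 52.3 CPM after LPS. Aged cells held 18.5, 18.4, 17.8, 17.8 and 17.0 CPM untreated and 44.3, 44.4, 39.1, 42.5 and 43.5 CPM after LPS. The untreated groups overlapped, while after LPS every aged library was below every young one.

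The rise of *P2ry2* was 3.08-fold in young cells (log2 1.62, SE 0.07, edgeR adjusted p = 1.94e-15) and 2.39-fold in aged cells (log2 1.26, SE 0.07, edgeR adjusted p = 2.58e-13). The aged-young difference was 0.08 untreated (SE 0.07, edgeR adjusted p = 0.499) and -0.28 under LPS (SE 0.06, edgeR adjusted p = 0.00144). Of all genes, 10.4% had groups that did not overlap between aged and young untreated cells and 14.8% under LPS. The rise was smaller in aged cells by 0.37 on the log2 scale (interaction -0.37, SE 0.09, edgeR adjusted p = 0.0189). Within batches that difference was negative in 5 of 5, from -0.606 in batch 2 to -0.065 in batch 1, where the young LPS-treated library was the lowest of its group. The interaction call was lost without replicate 2 (adjusted p = 0.134), 3 (0.0943), 4 (0.0734) or 5 (0.0669), without the filter on low counts (0.0559) and with library sizes alone (0.0517), while the lowest of 11 alternatives was 0.00243.

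*P2ry6* encodes the UDP receptor known for triggering phagocytosis by microglia. Young cells held 11.9, 10.3, 11.3, 6.72 and 7.65 CPM untreated and 14.4, 12.9, 17.2, 6.11 and 9.13 CPM after LPS. Aged cells held 4.39, 4.71, 6.50, 4.55 and 4.19 CPM untreated and 3.86, 6.18, 8.54, 4.80 and 4.84 CPM after LPS. Every untreated aged library was below every untreated young one. Under LPS the groups overlapped through the young library of batch 4. The young libraries of batches 4 and 5 were the lowest of their group in both states.

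Aged cells held 1.96-fold less *P2ry6* untreated (log2 -0.97, SE 0.24, edgeR adjusted p = 0.0114) and 2.11-fold less under LPS (log2 -1.08, SE 0.24, edgeR adjusted p = 0.00179). The aged library was lower in 5 of 5 batches in both states. Without replicate 1 or 2 the untreated difference was no longer called (adjusted p = 0.0556 and 0.0933), and the lowest of 11 alternatives was 5.19e-04. LPS gave 0.31 in young cells (SE 0.23, edgeR adjusted p = 0.238) and 0.21 in aged cells (SE 0.26, edgeR adjusted p = 0.518), and neither passed.

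**Figure D3:**
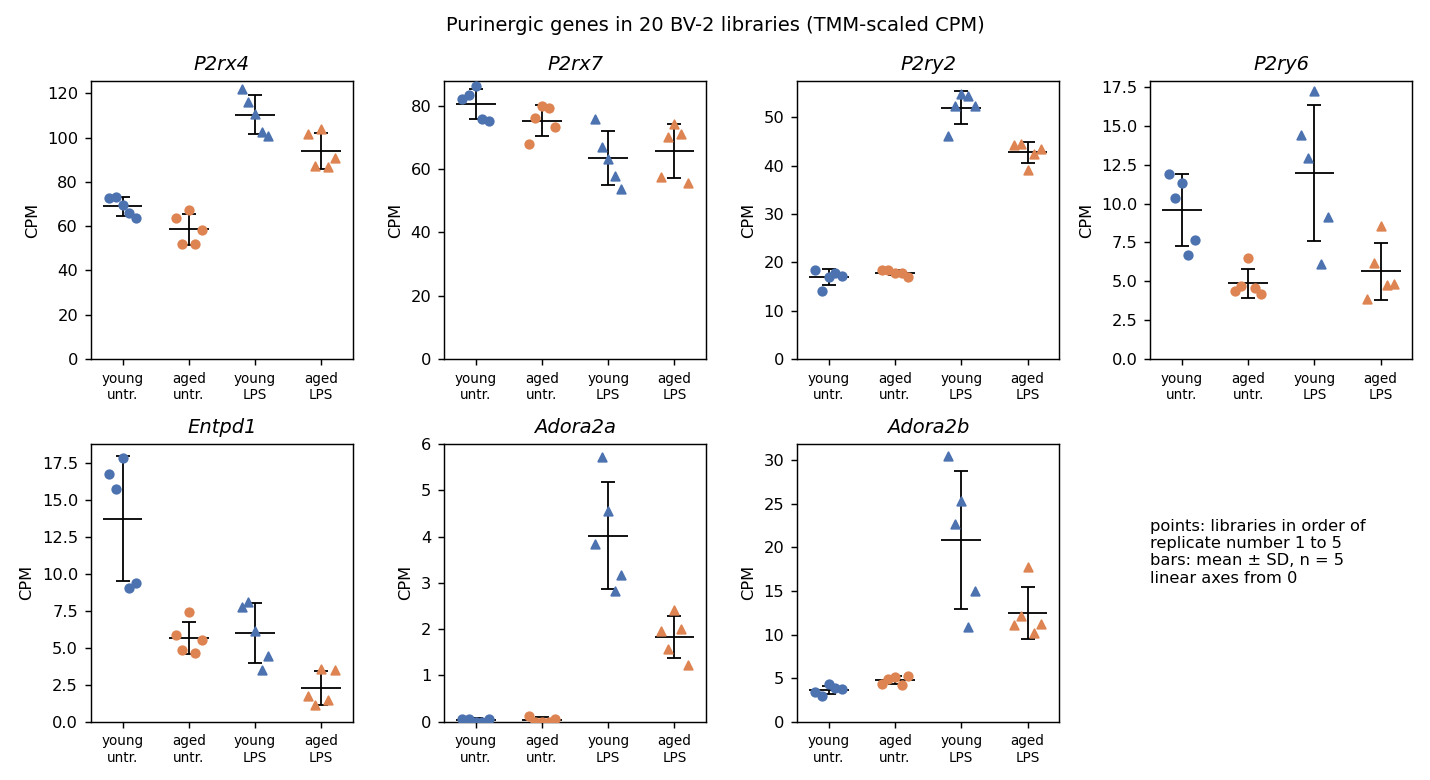
TMM-scaled CPM on the y axis (linear, from 0) of the 7 genes with counts, in the 5 libraries of each group, in order of batch 1 to 5 from left to right (circles untreated, triangles LPS-treated; blue young, orange aged), with mean and SD. *Adora2a* was at 0 to 0.129 CPM untreated and 1.23 to 5.72 CPM after LPS, and the young libraries of batches 4 and 5 are the lowest of their groups for *P2ry6*, *Entpd1* and, after LPS, *Adora2b*.

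*Adora2a* encodes a high-affinity adenosine receptor. Untreated young libraries had 1, 1, 0, 0 and 1 counts and untreated aged libraries 2, 0, 0, 0 and 1, all below the floor of 3 counts. After LPS the level was 3.85, 5.72, 4.55, 2.83 and 3.17 CPM in young cells and 1.96, 1.57, 2.41, 2.01 and 1.23 CPM in aged cells. Every LPS-treated library thus stood above the floor, and every aged one was below every young one.

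Against the mean TMM-scaled floor of 3 counts per library, mean *Adora2a* was at least 20.6-fold higher with LPS in young cells. In aged cells it was at least 9.87-fold higher. The lowest LPS-treated library against the highest floor gave 13.7-fold in young and 6.09-fold in aged cells. These bounds were not tested. The edgeR test of LPS-treated against untreated counts gave adjusted p = 1.32e-11 in young and 4.05e-09 in aged cells. *Adora2a* passed the filter on low counts only through its LPS-treated libraries, so these p-values are not independent of that filter. Under LPS the aged cells held 2.17-fold less (log2 -1.12, SE 0.23, edgeR adjusted p = 9.09e-04), lower in 5 of 5 batches. With the untreated libraries at the floor, the interaction could not be read (edgeR adjusted p = 0.74).

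*Adora2b* encodes a low-affinity adenosine receptor. Young cells held 3.45, 3.00, 4.28, 3.82 and 3.72 CPM untreated and 30.5, 22.6, 25.3, 10.9 and 15.0 CPM after LPS. Aged cells held 4.33, 4.91, 5.07, 4.17 and 5.19 CPM untreated and 11.1, 12.1, 17.7, 10.2 and 11.2 CPM after LPS. The untreated aged libraries lay slightly above the young ones of their batch in 5 of 5 batches, and after LPS they lay below in 5 of 5, though both pairs of groups overlapped.

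*Adora2b* rose 5.66-fold in young cells (log2 2.50, SE 0.22, edgeR adjusted p = 1.33e-09) and 2.64-fold in aged cells (log2 1.40, SE 0.22, edgeR adjusted p = 1.10e-05). The interaction was -1.10 (SE 0.31, edgeR adjusted p = 0.0375) and negative within 5 of 5 batches, from -1.77 in batch 1 to -0.21 in batch 4. It was lost without replicate 1 (adjusted p = 0.143), 2 (0.259) or 5 (0.101), and the lowest of 11 alternatives was 0.0054. Aged against young cells gave -0.73 under LPS (SE 0.20, edgeR adjusted p = 0.0074), lost without replicate 1 (0.0747) or 2 (0.0606) and as low as 0.00142 among 11 alternatives, and 0.37 untreated (SE 0.25, edgeR adjusted p = 0.371). The log2 ratio of *Adora2a* to *Adora2b* under LPS was -2.33 ± 0.43 in young and -2.77 ± 0.35 in aged cells (SD, n = 5 each), a difference of -0.45 (exact permutation test, adjusted p = 0.149).

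*Entpd1* encodes CD39, the enzyme that removes extracellular ATP and ADP. Young cells held 16.7, 15.8, 17.8, 9.02 and 9.38 CPM untreated and 7.80, 8.12, 6.13, 3.50 and 4.42 CPM after LPS. Aged cells held 5.88, 4.84, 7.41, 4.66 and 5.52 CPM untreated and 1.75, 1.15, 3.58, 1.47 and 3.47 CPM after LPS. The groups were ordered by both age and LPS. Untreated aged libraries were all below untreated young ones, LPS-treated libraries were all below untreated ones of their age, and the aged and young LPS-treated groups overlapped in 1 place, since the young library of batch 4 (3.50 CPM) lay below the aged one of batch 3 (3.58 CPM).

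LPS lowered *Entpd1* 2.32-fold in young cells (log2 -1.21, SE 0.25, edgeR adjusted p = 2.19e-04) and 2.44-fold in aged cells (log2 -1.29, SE 0.30, edgeR adjusted p = 9.97e-04). Aged cells held 2.43-fold less untreated (log2 -1.28, SE 0.25, edgeR adjusted p = 0.00169) and 2.55-fold less under LPS (log2 -1.35, SE 0.31, edgeR adjusted p = 0.00196). All 4 calls held in each of 11 alternatives. The interaction was -0.07 (SE 0.39, edgeR adjusted p = 0.959), so on the log2 scale a difference between the responses was not detectable at this spread. The level therefore ran from 13.8 ± 4.22 CPM in young untreated to 2.29 ± 1.15 CPM in aged LPS-treated cells (SD, n = 5 each).

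*Nt5e*, the partner of *Entpd1* in the pathway, was at 0 counts throughout. *Alpl*, another cell-surface nucleotide-hydrolysing enzyme, was present in all groups. Its mean was 90.6 CPM in young untreated, 75.7 in young LPS-treated, 82.5 in aged untreated and 76.8 in aged LPS-treated cells. *Entpd1* spans chr19:40612366-40741602 (plus strand) and *Nt5e* chr9:88327197-88372092 (plus strand). *Adora2a* lies at chr10:75316877-75334784 (plus strand), *Adora2b* at chr11:62248984-62266453 (plus strand) and *P2ry14* at chr3:59113855-59153618 (minus strand).

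Within batches, the aged-young difference of *Entpd1* ran from -1.68 to -0.75 on the log2 scale untreated and from -2.68 to -0.34 under LPS. That of *P2ry6* ran from -1.41 to -0.55 untreated and from -1.86 to -0.34 under LPS. For both genes the young libraries of batches 4 and 5 were lower than those of batches 1 to 3, untreated and after LPS.

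**Figure D4:**
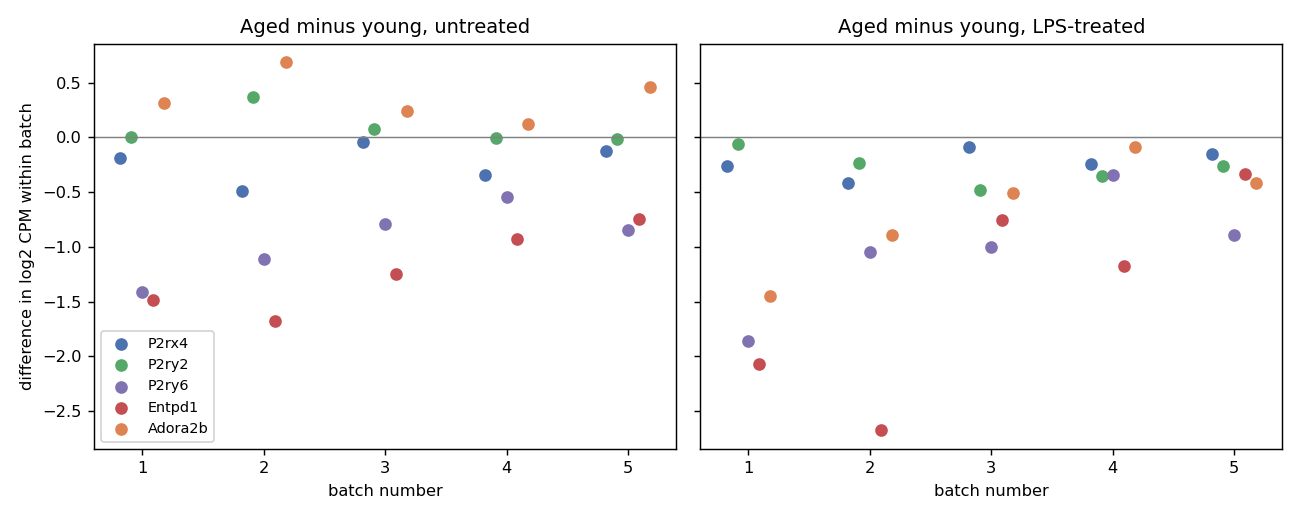
Aged minus young difference in log2 CPM on the y axis within each of the 5 batches on the x axis, for untreated (left) and LPS-treated (right) cells. All 5 genes shown lie below 0 in every batch under LPS, from -2.68 (*Entpd1*, batch 2) to -0.06 (*P2ry2*, batch 1), while untreated *Adora2b* lies above 0 in every batch, from 0.12 to 0.69. *P2rx7* and *Adora2a* were left out. Under LPS *P2rx7* was above 0 in 4 of 5 batches (-0.395 to 0.298) and *Adora2a* was below 0 in 5 of 5.

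The order of the genes was read from RPKM, the CPM divided by exon length in kilobases. In young untreated cells *P2rx7* stood first (13.5 ± 0.80 RPKM, SD, n = 5), then *P2rx4* (9.82 ± 0.61), *P2ry2* (4.31 ± 0.42), *P2ry6* (3.32 ± 0.80), *Entpd1* (2.46 ± 0.76) and *Adora2b* (1.98 ± 0.26). From *P2ry2* downwards neighbours overlapped. In aged untreated cells *P2rx7* (12.6 ± 0.83), *P2rx4* (8.34 ± 0.99) and *P2ry2* (4.56 ± 0.15) kept that order, followed by *Adora2b* (2.57 ± 0.25), *P2ry6* (1.69 ± 0.32) and *Entpd1* (1.01 ± 0.20), with no overlap between neighbours.

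After LPS *P2rx4* had the highest mean at both ages. In young cells it was 15.7 ± 1.28 RPKM, followed by *P2ry2* (13.2 ± 0.88), *Adora2b* (11.3 ± 4.28) and *P2rx7* (10.6 ± 1.43). The last 3 overlapped one another, and *P2rx4* overlapped *Adora2b* but neither *P2ry2* nor *P2rx7*. In aged cells *P2rx4* (13.4 ± 1.17), *P2rx7* (11.0 ± 1.42) and *P2ry2* (10.9 ± 0.55) overlapped as neighbours, and *Adora2b* (6.75 ± 1.63) came next, with no overlap with *P2ry2* but some with *P2rx7*. The tail at both ages was *P2ry6* (4.14 ± 1.52 young, 1.95 ± 0.63 aged), *Adora2a* (1.31 ± 0.38 young, 0.60 ± 0.15 aged) and *Entpd1* (1.07 ± 0.36 young, 0.41 ± 0.21 aged). *Adora2a* and *Entpd1* overlapped there at both ages.

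The genes whose log2 CPM followed each member most closely over the 20 libraries were taken as the 3 with the highest Pearson r. All points share their 4 groups, so r includes the differences between groups. *Ccrl2* (r = 0.978), *Gm4070* (0.975) and *Tapbp* (0.974) came nearest to *P2rx4*. *C9orf72* (0.992), *Ehd1* (0.991) and *Plk2* (0.991) came nearest to *P2ry2*. For *P2rx7* they were *Smchd1* (0.950), *Fancd2* (0.923) and *Baz1b* (0.920).

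For the adenosine receptors, *Adora2a* was nearest to *Lacc1* (r = 0.992), *Slfn8* (0.991) and *Parp9* (0.990), and *Adora2b* to *Kremen1* (0.980), *Sdc4* (0.979) and *Kpna3* (0.977). *P2ry6* was nearest to *Itm2b* (0.965), *Clu* (0.960) and *Dpep2* (0.948), and *Entpd1* to *Eno3* (0.964), *Selenop* (0.960) and *Itm2c* (0.958). After the group means were removed, r with the first gene stayed at 0.929 for *P2ry6* and 0.944 for *Entpd1* and dropped to 0.396 for *P2ry2*. It was 0.902 for *P2rx7*, 0.838 for *Adora2b*, 0.783 for *P2rx4* and 0.751 for *Adora2a*. The untreated libraries of *Adora2a* were below the floor, so its r over all libraries mostly reflects its rise with LPS.

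The rest of the pathway was read from 68 further genes in 9 roles, of which 32 were testable. In untreated cells 8 of these 32 were called between aged and young cells, 1 higher and 7 lower, against 11.5% of all genes, with a median log2 difference of -0.13 against -0.01 over all genes. With LPS 25 of 32 were called in young cells, against 64.6% of all genes (8 higher, 17 lower, median -0.22 against -0.01). In aged cells 21 of 32 were called, against 54.4% (7 higher, 14 lower, median -0.21 against 0.00). Under LPS 16 of 32 were called between the ages, against 29% (6 higher, 10 lower, median -0.12 against 0.01). The interaction was called for 4 of 32, against 6.39% (3 higher, 1 lower, median 0.02 against 0.02). The counts of calls include *Adcy3*, which passed the filter on low counts mainly through young untreated libraries. They also include *Plcb4*, with at most 8 counts in an untreated library, and *P2ry12*, with at most 6 in an LPS-treated one. The LPS calls of these genes are not independent of that filter.

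Among the other P2Y receptors, *P2ry13*, an ADP receptor, was 1.99-fold lower in aged untreated cells (3.71 ± 1.20 CPM young, 1.89 ± 0.71 aged, SD, n = 5 each; edgeR adjusted p = 0.0228). *P2ry1*, the Gq-coupled ADP receptor, fell with LPS from 28.1 ± 2.55 to 5.52 ± 1.13 CPM in young cells and from 24.0 ± 2.80 to 7.36 ± 0.98 CPM in aged cells, and the fall was smaller in aged cells (interaction 0.64 log2, edgeR adjusted p = 0.0241). *P2ry12*, the ADP receptor of resting microglia, stood at 1.17 ± 0.57 CPM in young and 0.84 ± 0.29 CPM in aged untreated cells. That was 6 to 31 and 9 to 18 counts. The log2 difference was -0.51 (SE 0.37, edgeR adjusted p = 0.414), too wide a spread to settle a change with age. The study reported lower *P2ry12* mRNA by RT-qPCR and lower protein by flow cytometry in aged cells. LPS lowered *P2ry12* 5.63-fold in young and 10.1-fold in aged cells (edgeR adjusted p = 1.90e-04 and 1.67e-04). *P2ry12* was named after its values were seen, as were *Alpl* and *Plcb4* above and *Panx1* and *Pde4b* below.

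Among the release channels, *Lrrc8b*, a subunit of volume-regulated anion channels, fell with LPS by 0.94 (log2) in young and 0.29 in aged cells, and the responses differed (interaction 0.65, edgeR adjusted p = 0.0228). *Panx1*, the pannexin known for ATP release, rose 1.72-fold in young and 1.52-fold in aged cells (edgeR adjusted p = 1.77e-05 and 4.91e-04). Of the adenosine-handling genes, the nucleoside carrier *Slc29a2* was 1.26-fold higher in aged untreated cells (edgeR adjusted p = 0.0401). *Pnp*, which cleaves inosine, rose from 52.9 ± 3.82 to 188 ± 32.3 CPM with LPS in young cells and from 53.0 ± 5.67 to 111 ± 18.5 CPM in aged cells (interaction -0.77, edgeR adjusted p = 0.00486).

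Downstream, 3 adenylyl cyclases, the enzymes that make cAMP, were lower in aged untreated cells, namely *Adcy3* (2.76-fold, edgeR adjusted p = 0.00723), *Adcy9* (1.82-fold, adjusted p = 3.81e-05) and *Adcy7* (1.32-fold, adjusted p = 0.00285). *Adcy3* was near the floor, at 1.17 ± 0.34 CPM in young and 0.42 ± 0.23 CPM in aged untreated cells, where libraries held 2 to 12 counts. Young untreated libraries held 9 to 22 counts of *Adcy3*, and LPS-treated ones 3 to 9 in young and 0 to 3 in aged cells. It passed the filter on low counts mainly through the young untreated libraries, so its p-value is not independent of that filter. *Adcy7* stood at 231 CPM in young and 175 CPM in aged untreated cells. *Adcy9* fell with LPS from 14.1 ± 2.19 to 8.77 ± 1.10 CPM in young cells and was 7.76 ± 0.96 and 7.56 ± 0.69 CPM in aged cells (interaction 0.65, edgeR adjusted p = 0.0214). *Pde4b*, which degrades cAMP, rose 20.4-fold with LPS in young and 16.4-fold in aged cells (edgeR adjusted p = 1.59e-15 and 2.10e-14). In the Gq branch *Plcb2*, *Plcb3* and *Gnaq* were lower in aged untreated cells by 0.29, 0.22 and 0.13 on the log2 scale (edgeR adjusted p = 0.0239, 0.0445 and 0.0467). Apart from the replicate block, the calls of the wider genes were not read under the alternatives used for the members.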

How the data were processed

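RNA of 20 BV-2 libraries was prepared by the authors with a stranded poly(A) kit and sequenced in paired ends; per the submitters' notes reads were aligned with STAR 2.6.1d to GRCm38 and counted with featureCounts 1.5.1. Strand, multi-mapping and overlap settings are not given in the sources used here. The deposited values are raw counts per gene, whole numbers with no normalization, of 55487 Ensembl IDs, 55227 of them named by GENCODE M21; 0 columns were left out. Counts were fitted with edgeR 4.0.16 in R 4.3.3 (filterByExpr, TMM, group means over all 20 libraries, quasi-likelihood F-tests, Benjamini-Hochberg over 12799 genes, threshold 0.05). Log2 CPM used a prior count of 2. TMM can hide a shift shared by most genes: with library sizes alone the median log2 change was -0.23 for LPS in young and -0.16 in aged cells.

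The members and gene lists were chosen with earlier results of these data known. Genes of the wider lists were named where called between aged and young untreated cells or in the interaction, at most 4 per role by size. The labels give the pairing, since a batch number holds 1 library of each group. The correlation of deviations from group means between libraries of the same number averaged 0.19 (range -0.29 to 0.48), against -0.05 for others. Between untreated and LPS-treated libraries it averaged 0.34 in young and 0.35 in aged cells. Between aged and young libraries it averaged 0.16 untreated and only 0.05 under LPS (range -0.29 to 0.35). The batch counts for aged against young cells rest on this weaker pairing. No 2 replicates agreed within sampling noise (chi-square per degree of freedom 2.31 to 24.4). Alternatives were a replicate block, DESeq2 1.42.0, its size factors, library sizes alone, other filters and leaving out each replicate number. The pipeline was tested on simulated counts.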

Additional observations from a re-analysis of the deposited data

Results flagged for a closer look

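Each of 32 sets of library values within a group was examined for a library far from the rest, and chance marks about 1 in 20. The aged untreated library of batch 3 stood apart for *P2ry6* (gap over range 0.777, against a critical value of 0.71), and the aged LPS-treated library of the same batch for *Adora2b* (0.746).

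A difference between the LPS responses of aged and young cells passed the test for 2 of the 7 testable genes, *P2ry2* (-0.366 on the log2 scale) and *Adora2b* (-1.1). Of all genes, 6.39% were called, 4.12% positive and 2.27% negative. With 1 replicate number left out at a time, 0 to 1 of the 7 were called. In the wider pathway the difference passed for 4 of 32, *Adcy9* (0.649), *Lrrc8b* (0.648), *P2ry1* (0.635) and *Pnp* (-0.765). Negative values mean a lower change with LPS in aged than in young cells.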

How the results depend on the processing

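Of the values of the 7 testable genes in 5 comparisons, no called value changed sign under any alternative. The replicate block added the calls of *P2rx4* between aged and young untreated cells and of *P2rx7* for LPS in aged cells and changed no other call of these genes. The members called in the interaction numbered 1 with library sizes alone and 1 without the filter. The ratio of *P2rx4* to *P2rx7* shifted with LPS by 1.028 in young and 0.887 in aged cells in the replicate block (sign flips, adjusted p = 0.156). Leaving out 1 replicate number at a time, the members called were 1 to 3 untreated and 0 to 1 in the interaction. All genes called were 548 to 1193 untreated, 2156 to 3563 under LPS and 189 to 697 in the interaction, with the lowest count of each without replicate 2. The ratio shifted by 0.998 to 1.07 in young cells and 0.85 to 0.927 in aged cells, and differed with age under LPS by -0.388 to -0.219. With 4 libraries a group the exact adjusted p of both shifts was 0.0714 without replicate 2, 3, 4 or 5 and 0.0476 without replicate 1, where the age difference under LPS also reached 0.0476.

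With library sizes alone the share of higher calls was 27.3% against 48.2% (LPS, young), 28.4% against 50.6% (LPS, aged), 70.1% against 48.3% (aged against young under LPS), 81.3% against 64.4% (interaction) and 42.2% against 32.2% (untreated). That choice changed the call of *P2rx7* in the aged response, of *P2rx4* between the ages under LPS and of the *P2ry2* interaction. The cause was not tested. At least 10 counts in every library left *Adora2a* untested, and DESeq2 gave no adjusted p for its interaction. *Adora2a*, *P2ry14* and *Nt5e* are limited by depth in untreated cells.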
